A study of Mus musculus with 6 samples.

Results

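The genes described here are the immunoglobulin gene segments, the parts from which B cells assemble antibody heavy and light chains, in the lungs of GRdim/dim and GR+/+ mice after hemorrhagic shock. A segment was included when its annotated biotype was an immunoglobulin constant (C), variable (V), diversity (D) or joining (J) gene, pseudogenes left out, and when its raw counts summed to at least 10 over the 6 libraries. Of 268 such annotated genes, 126 were included, 65 had no count and 77 had 1 to 9 counts, in a table of 54532 rows. The 126 comprised 12 of 13 C genes, 107 of 218 V segments, 7 of 14 J segments, 0 of 19 D segments and 0 of 4 genes with the biotype IG_LV, which had no count. The 4 segments at the minimum, with 10 counts each, were Ighv1-54, Ighv7-1, Igkv4-57-1 and Igkv4-61, and the 5 just under it, with 9 counts each, were Ighv1-19, Ighv11-2, Ighv2-6, Igkv2-112 and Igkv6-13. The segments were thus selected on biotype and summed raw count over both genotypes, and that count is a description and supports no comparison.

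GRdim/dim mice carry the Nr3c1tm3Gsc allele on both chromosomes, an exchange within the part of the glucocorticoid receptor (GR) that binds DNA, which impairs the formation of receptor dimers, and GR+/+ mice are their wild-type littermates. The mutation is present in every cell of the animal and is not limited to lung or B cells. All mice were 10 to 16 weeks old on a mixed 129/SvEv x C57BL/6 background, and both genotypes were anaesthetised, ventilated and put through the same experiment. Blood was withdrawn and the mean arterial pressure held at 35 mmHg for 1 h, the shed blood was then returned, and the mice were treated in a mouse intensive care unit for 4 h before the lungs were taken. Each of the 6 libraries, 3 per genotype, came from the lung RNA of 1 mouse and held between 15687734 and 32082940 counts. The sequenced mice were 2 females and 1 male for GR+/+ and 1 female and 2 males for GRdim/dim, so sex was not balanced. No uninjured group was analysed here, so a genotype difference that already existed before the shock cannot be told apart from one that followed it.

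Antibodies consist of paired heavy and light chains. In each developing B cell a V segment is joined to a J segment, with a D segment between them in the heavy chain, and the joined exon is spliced to a constant gene that sets the isotype. Naive B cells carry IgM and IgD, class switching replaces these with IgG, IgA or IgE, and plasma cells, the antibody-secreting end stage, produce far more immunoglobulin mRNA per cell than resting B cells. A single clone uses 1 productive heavy and usually 1 light chain rearrangement, so the V segments counted in a tissue depend on which clones it holds. The heavy chain genes lie on chromosome 12, the kappa light chain genes on chromosome 6 and the lambda light chain genes on chromosome 16. All 126 segments had the same GRCm38 coordinates and strand in the GENCODE M21 annotation.

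The J segments are printed to show how short the pieces are on which counts had to land, 38 to 54 bases, and the capitals mark the stretch that encodes the conserved tryptophan or phenylalanine followed by glycine. The letters searched were TGGGGNNNNGG, TTCGGNNNNGG and TTTGGNNNNGG on both strands, without overlap between them. A match lay on the coding strand of 6 of the 7 printed J segments and 11 of all 14, against 14 of 218 V coding exons (6.42%). Igkj3 had none. On the other strand a match lay in 0 J segments and in 17 V coding exons. Sequences are from the GENCODE M21 transcripts (GRCm38), 5′ to 3′ in the coding direction, with the position of the segment in parentheses.
Ighj1 (chr12:113429781-113429833, minus strand): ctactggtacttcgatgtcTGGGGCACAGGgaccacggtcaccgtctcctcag
Ighj3 (chr12:113429085-113429132, minus strand): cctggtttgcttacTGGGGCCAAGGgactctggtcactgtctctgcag
Ighj4 (chr12:113428514-113428567, minus strand): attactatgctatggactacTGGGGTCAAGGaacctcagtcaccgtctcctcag
Igkj2 (chr6:70722916-70722958, plus strand): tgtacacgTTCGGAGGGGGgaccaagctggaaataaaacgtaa
Igkj3 (chr6:70723223-70723260, plus strand): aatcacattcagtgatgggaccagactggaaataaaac
Igkj4 (chr6:70723548-70723585, plus strand): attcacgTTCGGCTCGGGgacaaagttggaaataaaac
Igkj5 (chr6:70723886-70723927, plus strand): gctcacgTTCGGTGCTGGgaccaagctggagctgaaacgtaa

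The V segments printed next are ones held largely by 1 or 2 GRdim/dim libraries, together with the most counted lambda V segment. They show how many bases tell a V segment from its closest relative, from 3 for Ighv1-72 to 30 for Ighv1-9 over the whole exon. Each line is the last 240 bases of the coding V exon, and capitals mark bases that differ from, or have no partner in, the annotated V segment of the same locus with the highest identity over the whole exon. That segment was Igkv3-1 for Igkv3-2 (92.9% identity), Ighv1-62-1 for Ighv1-9 (90.2%), Ighv5-15 for Ighv5-17 (90.9%), Ighv1-62-3 for Ighv1-72 (99.0%) and Iglv2 for Iglv1 (97.0%).
Igkv3-2 (chr6:70698828-70699067, plus strand): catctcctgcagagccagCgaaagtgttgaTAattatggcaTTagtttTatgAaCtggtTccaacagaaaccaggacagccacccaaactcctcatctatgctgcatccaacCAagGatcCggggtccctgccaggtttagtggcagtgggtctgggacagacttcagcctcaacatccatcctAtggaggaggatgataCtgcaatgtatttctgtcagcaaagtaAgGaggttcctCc
Ighv1-9 (chr12:114583569-114583808, minus strand): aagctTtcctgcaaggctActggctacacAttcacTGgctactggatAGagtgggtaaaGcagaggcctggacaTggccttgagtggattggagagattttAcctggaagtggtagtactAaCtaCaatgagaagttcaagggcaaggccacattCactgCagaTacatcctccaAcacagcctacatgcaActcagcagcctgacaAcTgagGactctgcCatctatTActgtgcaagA
Ighv5-17 (chr12:113859149-113859388, minus strand): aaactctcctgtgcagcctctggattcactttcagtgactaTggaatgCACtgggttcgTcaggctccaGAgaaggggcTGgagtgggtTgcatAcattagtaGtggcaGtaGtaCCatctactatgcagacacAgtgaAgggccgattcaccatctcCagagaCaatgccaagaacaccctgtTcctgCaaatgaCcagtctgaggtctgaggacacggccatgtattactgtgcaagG
Ighv1-72 (chr12:115757984-115758223, minus strand): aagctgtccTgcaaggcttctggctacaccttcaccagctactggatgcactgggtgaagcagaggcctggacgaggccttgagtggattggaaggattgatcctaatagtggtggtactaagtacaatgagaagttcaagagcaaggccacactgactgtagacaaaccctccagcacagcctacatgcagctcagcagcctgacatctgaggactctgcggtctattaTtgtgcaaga
Iglv1 (chr16:19085017-19085256, minus strand): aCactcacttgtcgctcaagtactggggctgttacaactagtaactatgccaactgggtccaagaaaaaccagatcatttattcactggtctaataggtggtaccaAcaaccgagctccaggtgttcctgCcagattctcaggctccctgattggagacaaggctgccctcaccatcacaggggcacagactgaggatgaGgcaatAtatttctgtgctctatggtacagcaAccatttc
Over the 107 V segments, a median of 48.4% of the 31-base windows of a transcript also occurred in transcripts of other genes, with a range from 0.0% to 98.1%, and 50 segments shared more than 50%. The share was 36.5% for Igkv3-2, 23.7% for Ighv1-9, 42.7% for Ighv5-17, 98.1% for Ighv1-72 and 36.8% for Iglv1. Counts of single V segments are therefore uncertain where the counting could have divided reads between relatives, and how reads with more than 1 match were handled is not given in the sources used here. Ighm and Igha shared no window with another gene, and Ighd shared 0.113% of its windows. Igkc shared none either, but lies within the span of Gm30211, a lincRNA gene on the same strand with 66 counts in all.

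Summed over the 126 segments, immunoglobulin transcripts were higher in GRdim/dim lungs than in GR+/+ lungs on average, and most of the difference came from 2 of the 3 GRdim/dim mice. The summed level, in CPM (the count of a gene relative to the library total after TMM scaling), was 249.6, 902 and 729 in GRdim/dim replicates 1, 2 and 3 and 150.5, 231 and 216 in GR+/+ replicates 1, 2 and 3. The groups did not overlap, but GRdim/dim replicate 1 lay close to the highest GR+/+ library while replicates 2 and 3 stood well above it. The group means were 627 ± 338 and 199 ± 42.7 CPM (SD, n = 3 each), a ratio of 3.15 that was 4.11 without GRdim/dim replicate 1 and 2.46 without GRdim/dim replicate 2. Because this is a sum over genes selected with earlier results known, it was given no test. Among the libraries in which Xist exceeded Ddx3y, the 1 GRdim/dim library had 902 CPM against a mean of 223 CPM in 2 GR+/+ libraries. Among the others, the mean of 2 GRdim/dim libraries was 489 CPM against 151 CPM in the 1 GR+/+ library. The ratios were 4.04 and 3.25, each with a single library on 1 side, and the part of sex in the summed difference was not tested.

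**Figure D1:**
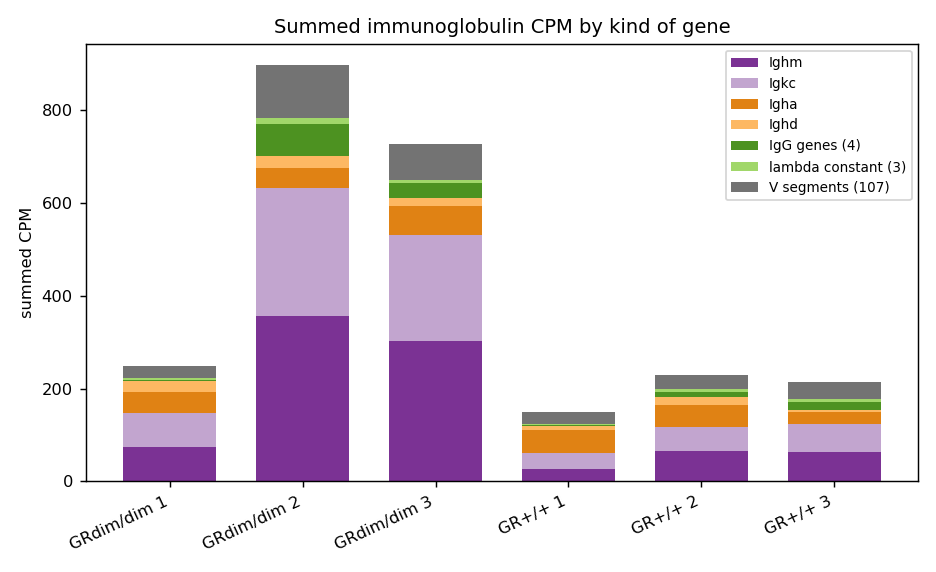
Stacked bars of the summed CPM of immunoglobulin genes (linear axis from 0) in each of the 6 libraries, divided into Ighm, Igkc, Igha, Ighd, the 4 IgG genes, the 3 lambda constant genes and the 107 V segments; Ighe and the J segments are not drawn. GRdim/dim replicates 2 and 3 reach 902 and 729 CPM in all and GRdim/dim replicate 1 reaches 249.6 CPM, next to 150.5 to 231 CPM in the GR+/+ libraries.

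Ighm, the constant gene of IgM and the most counted segment, held 35.8% of all counts of the 126 segments. Its level was 74.2, 356 and 304 CPM in GRdim/dim replicates 1 to 3, against 27.6, 65.4 and 64.2 CPM in GR+/+ replicates 1 to 3. Every GRdim/dim library was above every GR+/+ library, with replicate 1 nearest to them. The fitted log2 fold change was 2.22 ± 0.58 (SE). In the edgeR fit over 16568 genes its p was 0.00499 before and 0.286 after adjustment, so the difference was not called. Igkc, the only kappa constant gene, held 29.4% of the counts and behaved alike, at 74.2, 277 and 228 CPM against 33.5, 53.0 and 60.4 CPM. Its log2 fold change was 1.98 ± 0.44 (SE) with an adjusted p of 0.175 in edgeR, the lowest among the tested segments, and 7.28e-05 in DESeq2, which called it. Without GRdim/dim replicate 1, edgeR called Ighm (log2 fold change 2.66, adjusted p = 0.0282) and Igkc (2.37, adjusted p = 0.0156), and with any of the other 5 libraries left out it called neither. The DESeq2 call of Igkc was lost without GRdim/dim replicate 3 (adjusted p = 0.189) and without GR+/+ replicate 3 (0.128). In bulk lung RNA, more B lineage cells and more immunoglobulin RNA per cell cannot be told apart, and gene counts do not separate membrane from secreted transcripts.

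Ighd, which is transcribed together with Ighm in naive B cells, showed a different spread among the mice. Its level was 22.8, 25.2 and 17.6 CPM in GRdim/dim against 7.29, 15.9 and 5.18 CPM in GR+/+. Here GRdim/dim replicate 1 lay between the other two. The groups did not overlap, and the log2 fold change was 1.22 ± 0.38 (SE, adjusted p = 0.332, edgeR). The ratio of Ighm to Ighd counts within a library was 3.26, 14.1 and 17.3 in GRdim/dim and 3.79, 4.11 and 12.4 in GR+/+, so that GRdim/dim replicates 2 and 3 and GR+/+ replicate 3 had the most Ighm for their Ighd.

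Igha, the constant gene of the mucosal isotype IgA, showed no called difference and a small fold change. Its level was 44.3, 43.8 and 61.4 CPM in GRdim/dim against 50.5, 47.3 and 24.8 CPM in GR+/+. The groups overlapped, and the log2 fold change of 0.29 ± 0.27 (SE, adjusted p = 0.812, edgeR) was close to 1 standard error in size. As a share of the counts of all heavy constant genes, Igha took 30.8%, 8.88% and 14.8% in the GRdim/dim libraries and 57.5%, 33.9% and 22.2% in the GR+/+ libraries. Ighm took 51.6% (95% Wilson interval 49.7 to 53.5), 72.1% (71.3 to 72.9) and 73.2% (72.1 to 74.3) in GRdim/dim and 31.5% (29.1 to 33.9), 46.8% (44.8 to 48.8) and 57.5% (55.8 to 59.1) in GR+/+. These intervals cover counting error only. In GR+/+ replicate 1 more heavy constant counts fell on Igha than on Ighm, and in the other 5 libraries Ighm led.

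The IgG genes were low and uneven. Ighg2c was 0.647, 36.0 and 6.85 CPM in GRdim/dim and 0.299, 2.40 and 7.08 CPM in GR+/+, with a log2 fold change of 2.11 ± 1.56 (SE, adjusted p = 0.763, edgeR). Ighg2b was 0.863, 17.6 and 6.85 CPM against 0.777, 4.38 and 1.94 CPM (1.85 ± 0.94, adjusted p = 0.592, edgeR). GRdim/dim replicate 2 was the highest library for both genes, and the groups overlapped.
Ighg3 was 0.755, 13.3 and 2.84 CPM in GRdim/dim and 0.777, 2.64 and 8.29 CPM in GR+/+ (0.52 ± 1.06, adjusted p = 0.938, edgeR). Without GRdim/dim replicate 2 its sign turned, to -1.16. Ighg1 was 0.270, 1.45 and 15.3 CPM against 0.538, 1.62 and 0.159 CPM (2.94 ± 1.40, adjusted p = 0.576, edgeR), and 79.1% of its CPM over the 6 libraries lay in GRdim/dim replicate 3. The 4 IgG genes together made up 1.76%, 13.9% and 7.68% of heavy constant counts in GRdim/dim and 2.72%, 7.90% and 15.7% in GR+/+. The reference is C57BL/6, which carries Ighg2c, whereas strain 129 carries Ighg2a in its place, and the heavy chain haplotype of each mouse is not given in the sources used here. Ighe, the constant gene of IgE, had 11 counts in all, 8 of them in GRdim/dim replicate 2, and was not tested. It had 0 counts in GR+/+ replicates 1 and 3, where 3 counts would have been 0.179 and 0.0953 CPM.

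**Figure D2:**
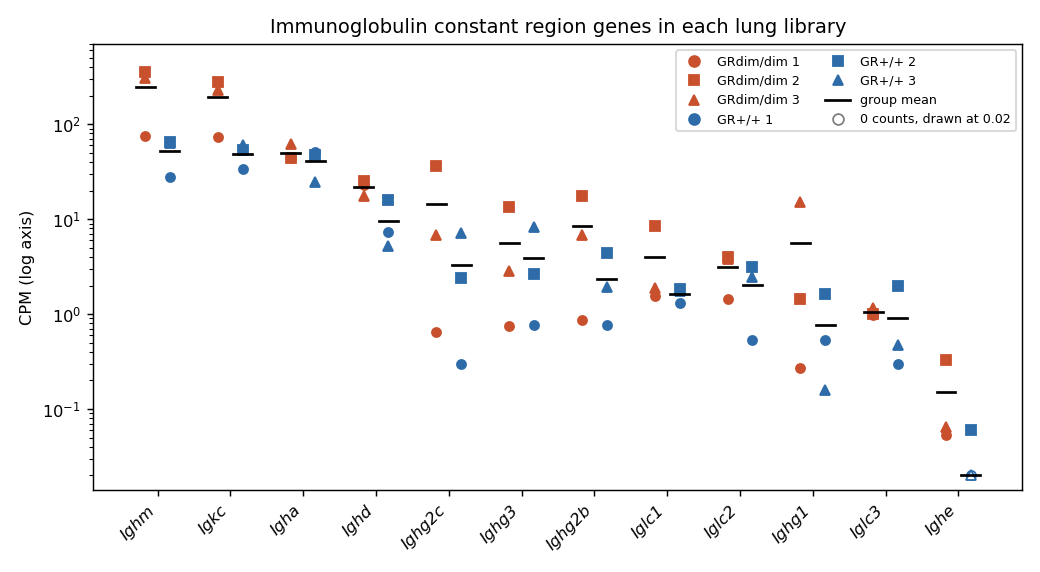
CPM on a log axis for each of the 12 constant genes, with GRdim/dim libraries in orange on the left and GR+/+ libraries in blue on the right of each gene, symbols for replicates and black bars for group means. Ighm, Igkc and Ighd are the genes with all GRdim/dim libraries above all GR+/+ libraries; open symbols for Ighe are libraries with 0 counts.

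The lambda constant genes, which serve a small minority of mouse light chains, overlapped between the genotypes. Iglc1 was 1.56, 8.56 and 1.87 CPM in GRdim/dim and 1.31, 1.86 and 1.75 CPM in GR+/+ (log2 fold change 1.30 ± 0.61, adjusted p = 0.543, edgeR). GRdim/dim replicate 2 alone stood apart. Iglc2 was 1.46, 4.03 and 3.81 CPM against 0.538, 3.12 and 2.48 CPM (0.59 ± 0.58, adjusted p = 0.824, edgeR), and Iglc3 was 0.970, 0.997 and 1.16 CPM against 0.299, 1.98 and 0.476 CPM (0.21 ± 0.65, adjusted p = 0.959, edgeR). Iglc2 and Iglc3 share sequence, with 25.1% of the Iglc3 windows also in Iglc2. Lambda genes made up 5.10%, 4.67% and 2.91% of light constant counts in GRdim/dim and 6.03%, 11.6% and 7.22% in GR+/+. The GRdim/dim shares all lay below the GR+/+ shares, as a description with no test. Per kilobase of the gene length given in the table, the mean level was 363 CPM in GRdim/dim and 92.1 CPM in GR+/+ for Igkc and 130 and 27.8 CPM for Ighm. For Igha it was 18.7 and 15.3 CPM, and for Ighd 11.5 and 4.97 CPM, so on the per-length scale these 4 genes had the same order of means in both genotypes.

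Of the 126 segments, 25 had enough counts to be tested (11 C, 14 V and 0 J), and none of the 25 was called by edgeR at an adjusted p under 0.05 and a log2 fold change beyond 0.5. Over all 16568 genes, 28 were called, and the share called higher in GRdim/dim was 0.0724%. At an unadjusted p under 0.05, 4 of the 25 (16%) were higher in GRdim/dim, namely Ighm, Igkc, Ighd and Igkv3-2, and 0 were lower, against 4.91% higher and 4.68% lower over all genes tested. Segments in which all GRdim/dim libraries exceeded all GR+/+ libraries numbered 3 of 25 (12.0%), against 7.77% of all genes tested, and those in which all lay below numbered 1 (Igkv1-117, 4.0%), against 7.05%. DESeq2 called 1 segment higher, Igkc, against 0.804% of all genes with an adjusted p called higher. It gave an unadjusted p under 0.05 for 7 (28%), all higher in GRdim/dim, against 5.21% of all genes. The fold change was above 0 for 20 of the 25, with a median log2 value of 0.68, against a median of 0.00645 over all genes tested. The tested segments passed a filter on low counts that a high level in 1 genotype can satisfy, so these counts describe the 25 and not the 101 that were not tested. Over all 126 segments the GRdim/dim libraries lay above the GR+/+ libraries for 11 (8.73%) and below them for 4 (3.17%), against 6.9% and 7.1% of all rows with at least 10 counts, and 63 segments had at least 1 library with 0 counts.

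**Figure D3:**
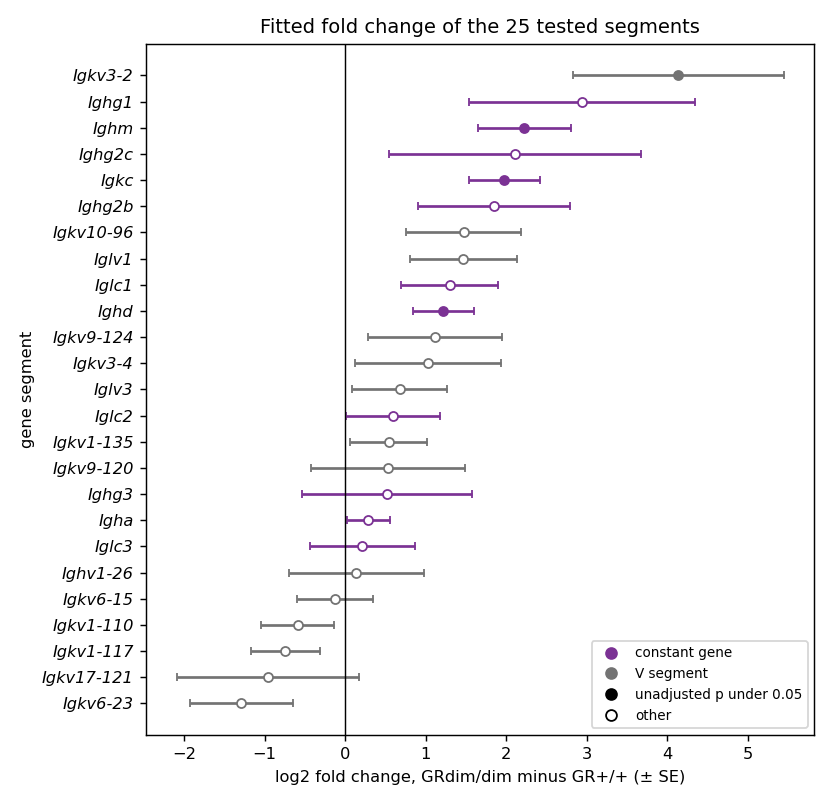
Fitted log2 fold change (GRdim/dim minus GR+/+, x axis) with its standard error for the 25 tested segments, ordered by size; purple marks constant genes, grey V segments, and filled points an unadjusted p under 0.05. The 4 filled points are Igkv3-2, Ighm, Igkc and Ighd, all to the right of 0.

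The V segments showed the unevenness among mice most clearly. Igkv3-2, the most counted V segment with 797 counts, was at 0.270, 13.8 and 26.3 CPM in GRdim/dim and 0.359, 0.540 and 1.24 CPM in GR+/+. GRdim/dim replicate 1 was below all GR+/+ libraries, though with 5 counts against 6 in GR+/+ replicate 1, while replicates 2 and 3 were far above them. Its log2 fold change was 4.13 ± 1.31 (SE, adjusted p = 0.405, edgeR; the unadjusted value was 0.0162), and without GRdim/dim replicate 1 it was 4.71 with an adjusted p of 0.0156. Igkv3-2 accounted for 41.5% (95% Wilson interval 38.5 to 44.6) of the kappa V counts of GRdim/dim replicate 3 and for 19.0% (17.2 to 20.9) of those of replicate 2. In the other 4 libraries the leading kappa V segment was Igkv1-110 or Igkv6-17, with 7.26% to 13.5% of the kappa V counts.

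The other kappa V segments among the 5 most counted of the locus had their highest level in GRdim/dim replicate 2. Igkv3-5 was 0.162, 8.14 and 1.68 CPM in GRdim/dim and 0.000, 0.540 and 0.476 CPM in GR+/+, Igkv4-68 was 0.054, 9.14 and 0.129 CPM against 0.299, 0.300 and 0.222 CPM, and Igkv8-28 was 0.054, 8.60 and 0.129 CPM against 0.239, 0.180 and 0.191 CPM. None of these was tested, because too few libraries held enough counts. GRdim/dim replicate 2 held 90.1% of the CPM of Igkv4-68 and 91.6% of that of Igkv8-28. Igkv10-96 was 0.917, 3.90 and 1.10 CPM against 0.239, 1.38 and 0.572 CPM (log2 fold change 1.47 ± 0.71, adjusted p = 0.557, edgeR). The next most counted kappa V segments did not share this leading library. Igkv1-110 was highest in GR+/+ replicate 1 (-0.59, adjusted p = 0.758, edgeR) and Igkv1-117 in GR+/+ replicate 3 (-0.74, adjusted p = 0.637, edgeR).

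Among the heavy chain V segments, Ighv5-17 was 0.054, 6.06 and 0.065 CPM in GRdim/dim and 0.060, 0.120 and 0.032 CPM in GR+/+, with 146 of its 152 counts in GRdim/dim replicate 2. Ighv1-72 (132 counts, 90.8% of its CPM) and Ighv1-81 (79 counts, 86.3%) had the same leading library. Ighv1-9 was 0.054, 0.291 and 5.81 CPM against 0.060, 0.120 and 0.476 CPM, with 90 of its 116 counts in GRdim/dim replicate 3, where it was 46.2% (39.3 to 53.2) of the heavy V counts. Ighv1-26 was the only tested heavy V segment, at 1.08, 0.955 and 0.129 CPM against 0.598, 0.060 and 1.24 CPM (0.14 ± 0.84, adjusted p = 0.978, edgeR), and its sign turned when GRdim/dim replicate 1 or 2 or GR+/+ replicate 2 was left out. Ighv5-17 led the heavy V counts of GRdim/dim replicate 2 with 19.1% (16.5 to 22.0). The other libraries were led by Ighv1-26 (GRdim/dim replicate 1 and GR+/+ replicate 3), Ighv6-3 (GR+/+ replicate 1) and Ighv5-2 (GR+/+ replicate 2).

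The pattern of segments held largely by 1 mouse was not limited to GRdim/dim lungs. Igkv6-17 was 0.431, 0.208 and 0.323 CPM in GRdim/dim and 0.478, 0.660 and 3.14 CPM in GR+/+. All GR+/+ libraries lay above all GRdim/dim libraries, but GRdim/dim replicate 1 and GR+/+ replicate 1 had 8 counts each. GR+/+ replicate 3 held 60.0% of the CPM. Igkv17-121 likewise had 61.1% of its CPM in GR+/+ replicate 3 (log2 fold change -0.96 ± 1.13, adjusted p = 0.862, edgeR). Of the 19 V segments with at least 100 counts, 11 had over 50% of their CPM in 1 library and 5 over 80%, and over all 107 V segments these numbers were 48 and 13. The leading library of the 19 was GRdim/dim replicate 2 for 9, GRdim/dim replicate 3 for 5, GR+/+ replicate 3 for 4, GR+/+ replicate 1 for 1 and the other two libraries for 0. A segment with few counts can lead in 1 library by counting error alone, and the numbers over all 107 include such segments.

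**Figure D4:**
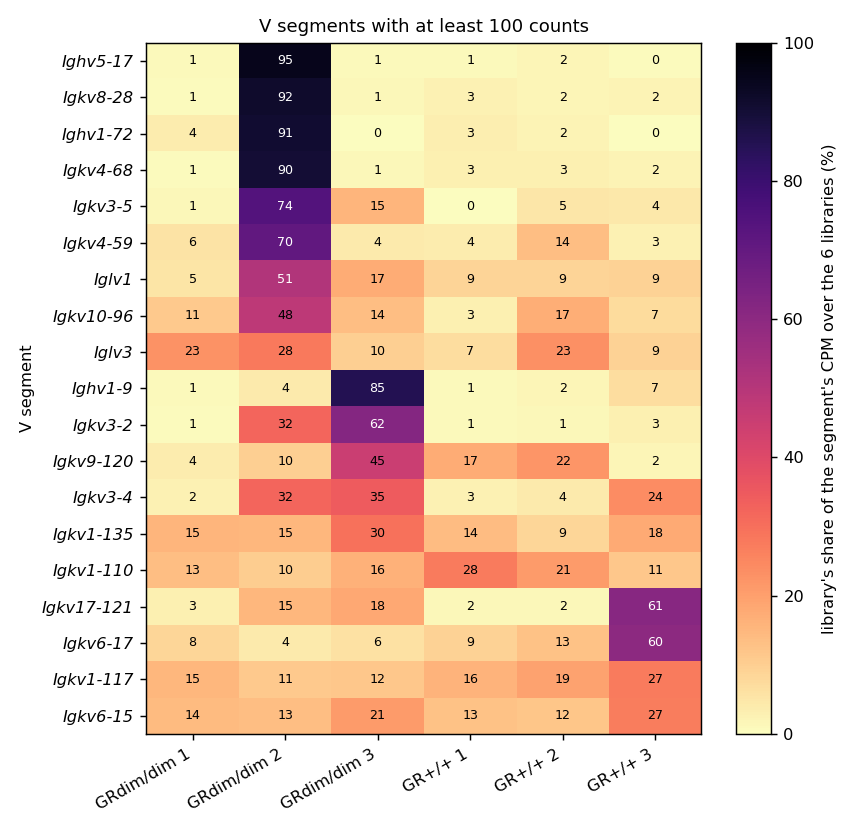
For the 19 V segments with at least 100 counts, each row gives the percentage of the segment's CPM over the 6 libraries that lies in each library (columns), darker for a larger share. Ighv5-17, Igkv8-28, Ighv1-72 and Igkv4-68 have over 90% in GRdim/dim replicate 2 and Ighv1-9 has 85.3% in GRdim/dim replicate 3, whereas Igkv1-110, Igkv1-117 and Igkv6-15 are spread over all libraries.

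The 3 lambda V segments were all included. Iglv1 was 0.701, 6.98 and 2.39 CPM in GRdim/dim and 1.20, 1.20 and 1.27 CPM in GR+/+ (log2 fold change 1.47 ± 0.66, adjusted p = 0.521, edgeR), and followed Iglc1 in having GRdim/dim replicate 2 as its highest library. Iglv3 was 1.19, 1.45 and 0.517 CPM against 0.359, 1.20 and 0.476 CPM (0.68 ± 0.59, adjusted p = 0.792, edgeR). Iglv2 was 0.431, 1.54 and 0.129 CPM against 0.179, 0.899 and 0.381 CPM and was not tested. The 7 J segments had 200 counts together, 52 of them on Ighj4, and no D segment reached 10 counts. Igkj4 was the only J segment whose GRdim/dim libraries (0.323, 0.748 and 0.323 CPM) all lay above its GR+/+ libraries (0.060, 0.120 and 0.095 CPM), on 35 counts in all.

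The number of different V segments was compared after thinning to the same number of V counts, over all annotated V segments. At 117 heavy V counts the expected number of segments was 37.3, 31.2 and 30.7 in GRdim/dim and 37.4, 48 and 42.4 in GR+/+. All GRdim/dim libraries were below all GR+/+ libraries, but GRdim/dim replicate 1 and GR+/+ replicate 1 differed by less than 1 segment. At 310 kappa V counts it was 58.3, 48.4 and 47.9 against 50, 63.1 and 54.5, and the groups overlapped. Without thinning, 43, 56 and 39 heavy V segments had a count in GRdim/dim and 38, 48 and 53 in GR+/+, on 163, 804 and 221 against 121, 117 and 224 heavy V counts. The inverse Simpson index, the number of equally used segments that would give the same chance that 2 counts fall on 1 segment, was 33.8, 11.9 and 5.60 for kappa in GRdim/dim and 22.0, 28.0 and 24.8 in GR+/+. For heavy V it was 21.5, 12.6 and 5.53 against 13.2, 40.4 and 19.9. GRdim/dim replicate 3 had the least even use of both V sets, and GRdim/dim replicate 1 the most even use of kappa V segments of all 6 libraries.

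Kappa V counts were fewer for each Igkc count in GRdim/dim. For every 100 Igkc counts the libraries held 22.0, 26.1 and 27.8 kappa V counts in GRdim/dim and 54.0, 40.8 and 49.7 in GR+/+, and the groups did not overlap. This measure was chosen after the values were seen and was not tested. The annotation is of C57BL/6 and the kappa and heavy chain haplotypes of these mixed-background mice are not given in the sources used here, so how many reads of 129 alleles were counted at a V segment is unknown and their part in this difference was not tested. GRdim/dim replicate 1, which was near the GR+/+ libraries in summed level, had the lowest value of all. Heavy V counts per 100 heavy constant counts overlapped, at 5.25, 6.44 and 3.04 against 7.35, 3.65 and 4.98.

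**Figure D5:**
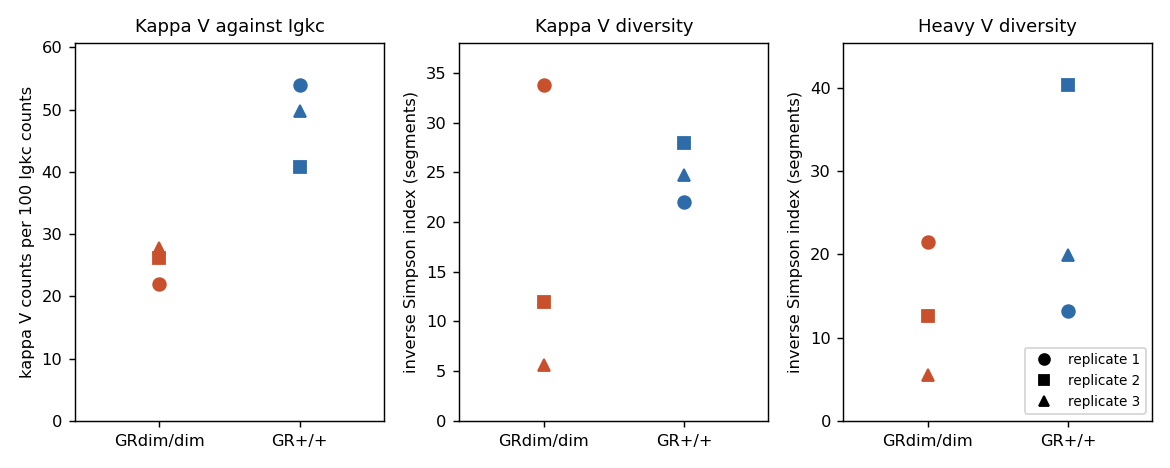
Left, kappa V counts per 100 Igkc counts; middle and right, the inverse Simpson index of kappa and heavy V segments; each point is 1 library (linear axes from 0), with symbols for replicates. The left panel shows no overlap between genotypes (22.0 to 27.8 against 40.8 to 54.0), and the middle panel shows GRdim/dim replicates 2 and 3 at 11.9 and 5.60, below all GR+/+ libraries, with replicate 1 above them.

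Genes of the B cell lineage were higher in GRdim/dim on average. All 20 of the list (surface receptor, signalling and transcription factor genes of B cells) were tested, and 0 were called by edgeR. In edgeR 10 were higher at an unadjusted p under 0.05, against 4.91% of all genes tested. All 20 had a fold change above 0, with a median log2 value of 0.91, against 0.00645 over all genes tested. DESeq2 called 2, Cr2 (adjusted p = 0.0438) and Bank1 (adjusted p = 0.00963), a complement receptor and a B cell adaptor. Over all genes with an adjusted p, DESeq2 called 0.804% higher in GRdim/dim. With each of the 6 libraries left out in turn, the DESeq2 adjusted p stayed under 0.05 for Cr2 in 1 case (range 0.0185 to 0.276) and for Bank1 in 2 cases (0.000255 to 0.172). The summed level was 159, 241 and 170 CPM in GRdim/dim and 86.1, 160 and 73.6 CPM in GR+/+, so GR+/+ replicate 2 reached the lowest GRdim/dim library. Cd79a and Cd79b, the signalling chains of the B cell receptor, had log2 fold changes of 1.07 ± 0.41 (adjusted p = 0.441, edgeR) and 0.68 ± 0.29 (0.486). Cd37, a tetraspanin, was the list's most counted gene (0.83 ± 0.29, adjusted p = 0.405, edgeR). Ms4a1, which encodes CD20, had 0.81 ± 0.41 (adjusted p = 0.576, edgeR). Fcmr, the IgM Fc receptor (1.35), Fcrla (0.94), Cd22 (0.83) and Blk (1.31) were among the other genes with an unadjusted p under 0.05.

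The ratio of an immunoglobulin constant gene to Cd79a within a library does not depend on library scaling. Ighm counts per Cd79a count were 7.78, 21.7 and 15.1 in GRdim/dim and 5.63, 5.34 and 13.1 in GR+/+. GRdim/dim replicate 1 lay among the GR+/+ values. The mean log2 ratio was higher by 0.90 in GRdim/dim (two-sided exact permutation test, p = 0.2, adjusted p = 0.45 over 3 ratios), where 3 against 3 libraries cannot give a p below 0.1. The corresponding difference was 0.68 for Igkc to Cd79a (exact p = 0.3, adjusted p = 0.45) and 0.68 for Ighm to Ighd (exact p = 0.6, adjusted p = 0.6). With that lower limit none of these tests could pass 0.05, so they do not show whether immunoglobulin transcripts differed beyond Cd79a.

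Among 14 genes of plasma cells and antibody secretion, 13 were tested and 0 were called by edgeR or DESeq2. In edgeR 3 were higher and 0 lower at an unadjusted p under 0.05, against 4.91% and 4.68% of all genes tested. The fold change was above 0 for 10 of the 13, with a median log2 value of 0.30. It was below 0 for Prdm1 (-0.51 ± 0.28), Derl3 (-0.51 ± 0.41) and Herpud1 (-0.03 ± 0.17). Groups did not overlap for 1 gene higher in GRdim/dim (Sec11c) and 1 lower (Derl3), against 7.77% and 7.05% of all genes tested. Jchain, which encodes the chain that joins polymeric IgM and IgA, was 10.6, 41.8 and 49.0 CPM in GRdim/dim and 9.50, 11.6 and 19.8 CPM in GR+/+ (1.30 ± 0.50, adjusted p = 0.456, edgeR). Replicates 2 and 3 of GRdim/dim were above all GR+/+ libraries and replicate 1 was among them, whereas for Ighm replicate 1 was also above them. Mzb1, a chaperone of immunoglobulin assembly, was 4.31, 8.22 and 7.88 CPM against 4.24, 5.34 and 5.27 CPM (0.46 ± 0.32, adjusted p = 0.718, edgeR). Xbp1, the transcription factor of the secretory programme that many other cells also use, had 0.73 ± 0.27 (adjusted p = 0.431, edgeR). Its level was 561, 304 and 585 CPM in GRdim/dim against 354, 285 and 239 CPM in GR+/+. Tnfrsf13b was 9.97, 7.48 and 9.95 CPM against 5.32, 7.61 and 2.95 CPM (0.80 ± 0.35, adjusted p = 0.505, edgeR). For both genes GRdim/dim replicate 2 was the lowest of its genotype and lay below a GR+/+ library. Sdc1, which lung epithelium also expresses, had 0.14 (unadjusted p = 0.502). Tnfrsf17, the receptor most limited to plasma cells in this list, had 15 counts in all and was not tested.

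Of 13 genes of V(D)J recombination, class switching and the surrogate light chain, 6 were tested, none was called by edgeR or DESeq2 and none reached an unadjusted p under 0.05 in edgeR, with a median log2 fold change of -0.25. Rag1 (14 counts), Rag2 (1), Dntt (18), Igll1 (7), Vpreb1 (56) and Vpreb2 (1) were among those too low to be tested. Transcripts of these genes were thus scarce in these libraries. Vpreb3, of the same list, had 1762 counts and was tested (log2 fold change -0.27, unadjusted p = 0.463, edgeR). Xrcc6, a DNA repair gene of all cells, was among the most counted of the list, with a log2 fold change of -0.07. Of 12 Fc receptors and immunoglobulin transporters, 11 were tested and 0 were called by edgeR or DESeq2. At an unadjusted p under 0.05 in edgeR, against 4.91% of all genes tested, 3 were higher. These were Fcmr, Fcer1g, the common signalling chain (0.69 ± 0.21, adjusted p = 0.312, edgeR), and Fcgr2b, the inhibitory IgG receptor (0.71 ± 0.31, adjusted p = 0.492, edgeR). Fcgrt, the neonatal Fc receptor, had 0.15 (unadjusted p = 0.522). The fold change was above 0 for 8 of the 11 and below 0 for Fcamr (-0.43 ± 0.33), Pigr (-0.37 ± 0.49) and Trim21 (-0.22 ± 0.27). Groups did not overlap for 3 genes higher in GRdim/dim and 1 lower (Fcamr), against 7.77% and 7.05% of all genes tested.

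Genes of other leukocytes were counted in the same libraries. Over all genes tested, 4.91% were higher in GRdim/dim at an unadjusted p under 0.05 in edgeR. DESeq2 called 0.804% of all genes with an adjusted p higher. Of 12 T cell genes, 6 had an unadjusted p under 0.05, all higher in GRdim/dim (Lck, Trbc1, Trbc2, Trac, Cd3d and Cd3e), with a median of 0.78, 0 called by edgeR and 1 by DESeq2 (Trac, adjusted p = 0.0259, under 0.05 with 1 of the 6 libraries left out), and their summed level was 67.5 to 92.8 CPM in GRdim/dim and 35.8 to 68.7 CPM in GR+/+. The 36 T cell receptor segments with at least 10 counts summed to 39.0, 46.2 and 44.5 CPM in GRdim/dim and 16.2, 32.5 and 20.1 CPM in GR+/+. In contrast to the immunoglobulin sum, GRdim/dim replicate 1 was close to replicates 2 and 3 on this measure. Of 8 neutrophil genes tested, 3 were higher at an unadjusted p under 0.05 (Ngp, S100a9 and Retnlg), with a median of 0.90, 0 called by edgeR and 2 by DESeq2 (Ngp, also with each of the 6 libraries left out, and Retnlg, with 3 of them left out), and summed levels of 363 to 1156 against 255 to 511 CPM, and the highest sum was that of GRdim/dim replicate 1. S100a8 had 1.26 (unadjusted p = 0.0576). Summed erythroid genes overlapped between the genotypes, at 1778 to 4474 against 1147 to 4246 CPM, with Hba-a2 as the 1 of 8 genes at an unadjusted p under 0.05 (0.76) and Hbb-bs and Hba-a1, the most counted, at 0.10 and 0.70. The alveolar and endothelial list, which also held the airway genes Scgb1a1 and Foxj1, summed to 38211 to 52420 against 34764 to 54339 CPM. It was led by Scgb1a1 (0.23), alone at 13822 to 27513 CPM over the 6 libraries, and Sftpc (0.17). The libraries thus carried the defining transcripts of lung. Cldn5 was higher (0.94) and Foxj1 lower (-0.70) at an unadjusted p under 0.05 in edgeR. Of the 10 genes, 3 had a fold change above 0, 0 were called by edgeR and 1 by DESeq2 (Cldn5, adjusted p = 0.0338). The other endothelial genes of the list had fold changes below 0 (Pecam1 -0.44 ± 0.21 and Cdh5 -0.20 ± 0.26). How far the number of leukocytes in the lung, in tissue or in blood, contributed to the immunoglobulin difference was not tested. Nr3c1, the mutated gene, was 159, 149.5 and 120.2 CPM in GRdim/dim and 138, 145 and 162 CPM in GR+/+ (log2 fold change -0.05 ± 0.17, adjusted p = 0.961, edgeR), and a point mutation cannot be checked from gene counts.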

How the data were processed

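Lung RNA was captured by its poly(A) tail and sequenced, with 1 library per mouse. The deposited table held raw counts per gene, made by the authors. The submitters' notes name the mm10 genome and DESeq2; the aligner, the counting program, the annotation release, strand use and the handling of multiply mapped reads are not given in the sources used here. Libraries held 15687734 to 32082940 counts, and intervals cover counting error only.

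Counts were scaled with TMM, filtered with filterByExpr and tested with edgeR 4.0.16 (quasi-likelihood, robust, genotype only) over 16568 genes with Benjamini-Hochberg adjustment. A gene was called at an adjusted p under 0.05 and a log2 fold change beyond 0.5. DESeq2 1.42.0 was the other test. Single ratios were tested with exact permutation tests. Replicates of a genotype differed by far more than sampling noise (chi-square per gene 20.6 to 73.5). The p-values measure the spread between single mice, 1 of which was treated per day. Genes named by rule are all constant genes, the 5 most counted V segments of each locus and segments at the count minimum. Of each gene list they are those with an unadjusted p under 0.05, the 2 most counted and 6 B lineage genes in any case. Genes named after their values were seen are Igkv6-17, Igkv17-121, Igkj4, Vpreb3 and untested list genes. Further such genes are Prdm1, Derl3, Herpud1, Sec11c, Fcamr, Pigr, Trim21, Pecam1 and Cdh5. The same holds for other V segments of the share plot and leading segments of libraries. The segments and lists were chosen with earlier results of these data known. Alternatives covered scaling, filters, test, replicate block, sex-linked expression and each library left out; DESeq2 and the ratios with libraries left out were added after seeing the data. Sequences and windows of 31 bases came from GENCODE M21 (Biopython alignment). Promoter and protein sequences of these segments, and sequence beyond the V exons, were not analysed here. Values of some genes on the lists are not reported here.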

Additional observations from a re-analysis of the deposited data

How the results depend on the processing

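The ratio of summed immunoglobulin CPM stayed above 1 under each alternative (RLE scaling 3.14, scaling without immunoglobulin and hemoglobin genes 3.15, segments with at least 100 counts 3.30, all 268 genes 3.13, without Ighm and Igkc 1.94, single libraries left out 2.46 to 4.11). The number of segments called was 0 in the edgeR fit. Without a filter on low counts it was 5 of 126 (Igkc, Ighd, Ighv1-42 and Ighv1-81 higher, Igkv6-17 lower), against 522 of 31368 genes in all. It was 1 with DESeq2, 0 to 3 with single libraries left out and 0 to 5 for DESeq2 with libraries left out. It stayed at 0 with RLE scaling, at least 10 counts in every library, the covariate of sex-linked expression, no threshold on the fold change and scaling without immunoglobulin and hemoglobin genes. Leaving out GRdim/dim replicate 1 gave the 3, which were Ighm, Igkc and Igkv3-2. Over all genes, 28 calls among 16568 tested became 522 among 31368 without a filter and 272 with DESeq2. With libraries left out there were 4 to 22 (4 without GR+/+ replicate 2). For DESeq2 with libraries left out there were 174 to 399 (270, 244 and 399 without GRdim/dim replicates 1, 2 and 3, and 174, 207 and 203 without GR+/+ replicates 1, 2 and 3). Apart from these settings the cause of the differences was not tested.

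Deviations of libraries of the same number in the 2 genotypes had correlations of 0.241, 0.0466 and -0.0176. For libraries of different number the correlations ranged from -0.263 to 0.169. With 3 libraries per genotype these values cannot decide whether the numbers are a pairing. With the replicate block, 2 segments were called (Ighm, adjusted p = 0.0215, and Igkc, adjusted p = 0.0383) and 34 genes in all. Of 16 single immunoglobulin genes followed, 3 changed sign with libraries left out, namely Ighg3 (-1.16 to 1.74, DESeq2 -1.15 without GRdim/dim replicate 2), Ighv1-26 (-0.34 to 1.15, DESeq2 -0.22 and -0.087 without GRdim/dim replicates 1 and 2 and -0.35 without GR+/+ replicate 2) and Iglc3 (-0.19 to 1.38, DESeq2 -0.21 and -0.13 without GR+/+ replicates 1 and 3). Ighm ranged from 1.84 to 2.66 over 19 alternatives (adjusted p 1.17e-10 to 0.567, under 0.05 in 3), Igkc from 1.61 to 2.37 (4.79e-13 to 0.425, under 0.05 in 8) and Ighd from 0.92 to 1.82 (8.81e-06 to 0.637, under 0.05 in 2). The log2 ratios to Cd79a and Ighd kept their sign with each library left out. The 101 untested segments had too few counts or had them in too few libraries, and 3 counts correspond to 0.0953 to 0.194 CPM.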
